A study of Mus musculus with 9 samples.

Results

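Genes of protein folding and quality control in the endoplasmic reticulum (ER) were followed across cultured mouse granulosa cells infected with different adenoviruses. The set held 32 genes listed for their roles in ER chaperoning and ER-associated degradation, out of 18193 genes with a probe set on the arrays. A gene's value came from the brightest probe set that names it alone, that is, the one with the highest mean log2 level over the 9 arrays, and all 32 had one. No member was lost to a filter on low values, because the chosen probe sets had means of 8.54 to 13.67 on the log2 scale.

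The cells were granulosa cells, which surround and feed the oocyte, taken by needle puncture from mouse ovaries at 20 to 26 days of age. The mice had received equine chorionic gonadotrophin (eCG), which makes follicles grow, 48 h earlier. The cells were infected in culture for 24 h in serum-free medium with adenovirus at a nominal multiplicity of infection of about 50. The groups were cells overexpressing WNT4 (3 arrays), cells given Cre recombinase (3 arrays) and cells given enhanced green fluorescent protein (GFP), the control group (3 arrays). WNT4 is a secreted WNT ligand, and Cre is a recombinase that can delete floxed Ctnnb1, which encodes beta-catenin. All groups thus carried an adenovirus and had been primed with eCG. The labels speak of mice of various genotypes without saying which cells came from which, and they call the replicates biological without naming separate animals or cultures. A p-value here therefore reflects only the scatter among these 9 samples, which may be technical.

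The arrays as a whole set limits on what follows. Of 12 granulosa markers, 11 had a mean of at least 6 and Amh did not. The target genes did not settle the labels. The brighter Wnt4 probe set averaged 9.34 ± 0.48 (SD, n = 3) on the arrays labelled WNT4 and 10.63 ± 0.55 on those labelled Cre, against 9.41 ± 0.45 with GFP. The other Wnt4 probe set averaged 9.29 ± 0.82 with WNT4, 9.62 ± 0.51 with Cre and 8.32 ± 0.78 with GFP. It thus differed from the brighter one in WNT4 against GFP. The brightest Ctnnb1 probe set differed by 0.04 ± 0.21 (SE) between Cre and GFP. Whether these probe sets lie in the viral transcript or in the deleted exons is not known here, so a group below is the group as labelled. The array WNT4 1 stood apart, with the highest upper quartile of the 9 (8.01, against 7.68 to 7.88 on the others), the highest 3' minus 5' difference of the beta-actin and Gapdh control probes (1.38 and 2.17 on the log2 scale) and the lowest array weight (0.67). In bulk RNA, fewer cells of a type and less RNA per cell cannot be told apart.

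Secreted and membrane proteins enter the ER through the Sec61 channel, fold there with chaperones and disulphide isomerases, and leave in COPII vesicles. Proteins that fail to fold are pulled back into the cytosol and degraded, a route known as ER-associated degradation. When unfolded protein accumulates, the membrane sensors IRE1 (Ern1) and ATF6 raise the output of chaperone and degradation genes, in part through a DNA element called the ER stress response element, and the sensor PERK slows translation. Granulosa cells are secretory cells that release inhibins, activins and matrix proteins.

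Promoter sequence is shown first because 11 of the members hold a known ER stress element. The rule for the members did not read promoters, but it named genes of the kind this element is known to serve. The shares below therefore describe the set and test nothing. RefSeq promoter windows of the GRCm38.p6 build, 250 bases before to 50 after the start site, were found for 27 of the 32 genes. The ER stress response element, CCAAT and CCACG with 9 bases of any kind between them, was searched on both strands. It was present in 9 of those 27 genes (33.3%) and in 39 of 32851 windows of all genes (0.119%). Among other listed ER pathway genes with a window, 1 of 63 held it (1.59%). A shorter relative, ERSE-II, ATTGG and CCACG with 1 base of any kind between them, was present in 2 of 27 (7.41%), Herpud1 and Dnajb11, and in 12 of all windows (0.0365%). The windows below run 10 bases beyond the element on each side, in the direction of the gene, with the fixed letters of the element in capitals. An element on the opposite strand reads as CGTGG followed by ATTGG. The coordinates are GRCm38.p6, with the gene's strand after them.
Hspa5, chr2:34772015-34772053, plus strand: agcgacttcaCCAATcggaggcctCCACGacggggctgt
Herpud1, chr8:94386367-94386397, plus strand: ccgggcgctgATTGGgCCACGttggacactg
Creld2, chr15:88819510-88819548, plus strand: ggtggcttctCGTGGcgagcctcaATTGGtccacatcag
Syvn1, chr19:6046522-6046560, plus strand: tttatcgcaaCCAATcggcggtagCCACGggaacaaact
Pdia6, chr12:17266481-17266519, plus strand: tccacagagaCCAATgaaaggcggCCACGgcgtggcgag
Dnajc3, chr14:118937817-118937855, plus strand: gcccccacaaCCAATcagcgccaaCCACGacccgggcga
Calr, chr8:84847065-84847103, minus strand: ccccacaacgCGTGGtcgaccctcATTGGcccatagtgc
Canx, chr11:50325790-50325828, minus strand: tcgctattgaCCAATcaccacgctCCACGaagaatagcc
Derl3, chr10:75893232-75893270, plus strand: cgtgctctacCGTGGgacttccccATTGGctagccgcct
Hsp90b1, chr10:86705523-86705666, minus strand: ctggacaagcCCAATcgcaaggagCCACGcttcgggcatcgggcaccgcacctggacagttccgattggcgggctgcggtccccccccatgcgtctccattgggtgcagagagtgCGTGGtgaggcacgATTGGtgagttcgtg

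Hsp90b1 carried the element at 2 places, and its printed window runs from the first to the last. The element of Hspa5 began 65 bases before the start site, that of Syvn1 44 and that of Calr 162. In Dnajb11 the ERSE-II match began at position 8 after the start site. The core of the unfolded protein response element, TGACG followed directly by TGG, was present in 1 of 27 members, Sec24d, and in 0.676% of all windows. Of the other listed ER pathway genes with a window, 6 of 63 held it (9.52%). The parts of the ER stress response element are common by themselves: CCACG was present in 24 of 27 members (88.9%, against 32.8% of all windows) and CCAAT in 22 of 27 (81.5%, against 37.4%). Among the 63 other ER pathway genes, 42 held CCACG (66.7%) and 28 held CCAAT (44.4%). These letters lie inside the longer elements, so the counts overlap. A match describes the letters in these windows and does not show that a factor bound there.

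**Figure D1:**
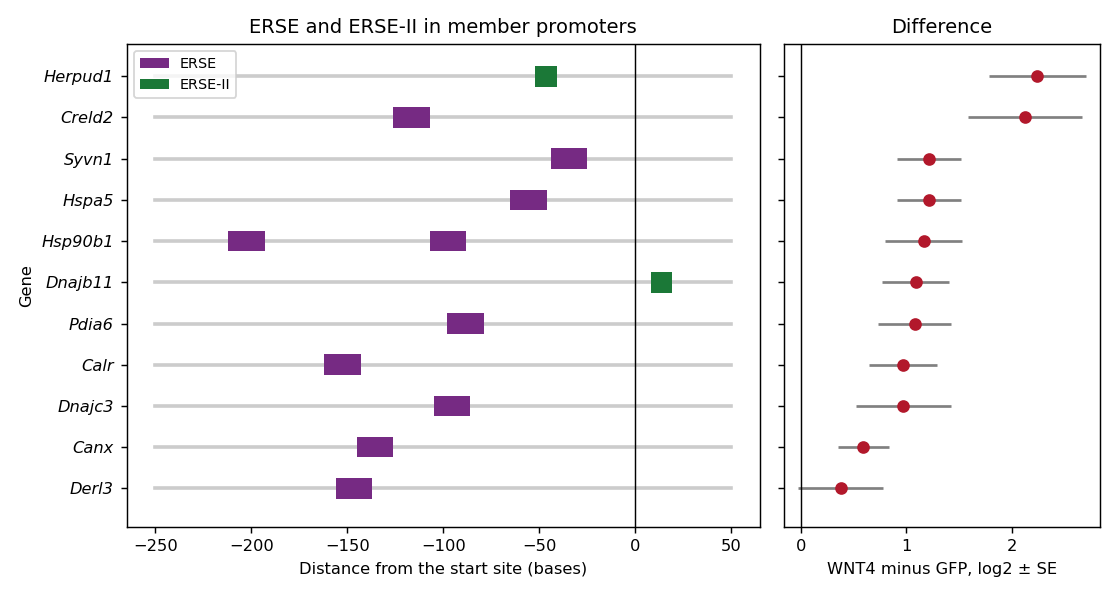
Left, position of the ER stress response element (purple) and of ERSE-II (green) in the promoter windows of the 11 members that hold one, in bases from the start site, with a grey line for the window searched. Right, the log2 difference of each gene between WNT4 and GFP with its SE (n = 3 arrays per group); all 11 points lie above 0.

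The contrast of WNT4 with GFP asks what WNT4 overexpression does to these genes. Every member had a higher mean with WNT4, by 0.07 to 2.24 on the log2 scale with a median of 0.88, where the median over all 18193 genes was 0.02. None of the 32 was called by limma after adjustment across the whole array (adjusted p of 0.171 to 0.870), a test that called 7 of 45037 probe sets (0.0155%). At an unadjusted p under 0.05, 25 of 32 members were higher and 0 lower, against 12.6% of all genes higher and 4.46% lower. For 18 of 32 members all 3 WNT4 arrays lay above all 3 GFP arrays, as they did for 12.5% of all genes. The members were bright, and bright genes ran higher with WNT4 in general: among the 6842 genes with a mean of at least 8, the median difference was 0.23, 27% were higher at an unadjusted p under 0.05 and 26.7% had no overlap.

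The 3 WNT4 arrays differed strongly among themselves. Relative to the GFP mean, the median member stood at 1.45 on WNT4 1, 0.28 on WNT4 2 and 0.97 on WNT4 3, while all 6 Cre and GFP arrays stood between -0.11 and 0.16. WNT4 1 was the highest of the 9 arrays for 29 members and WNT4 3 for the other 3. WNT4 1 was also the highest for 25.8% of all genes and 46.2% of those with a mean of at least 8. The order WNT4 1, WNT4 3, WNT4 2, from high to low, held for 27 of 32 members, against 18.4% of all genes and 28.6% of those with a mean of at least 8. On WNT4 2, the lowest of the 3, 15 members lay above every Cre and GFP array, compared with 31 on WNT4 1 and 28 on WNT4 3. The share of all genes above every Cre and GFP array was not counted, so these 3 counts only describe the members. Above every GFP array lay 32, 20 and 29 members on WNT4 1, 2 and 3. Of the 6842 genes with a mean of at least 8, 4776, 3073 and 3882 did so. The standard deviation of the median member was 0.66 over the WNT4 arrays, against 0.18 over the Cre arrays and 0.18 over the GFP arrays.

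Those arrays decided how the test came out. Without WNT4 1 the median difference from GFP was 0.61, with 30 of 32 members positive and 0 called. Without WNT4 2 it was 1.12, and 18 of 32 members were called by limma at an adjusted p under 0.05, among 748 of 45037 probe sets (1.66%). In that comparison of 2 arrays with 3, there was no overlap for 29 members and for 22.7% of all genes. Without WNT4 3 the median difference was 0.84 with 0 called. Quantile normalization, which makes the distributions of all arrays equal, left a median of 0.61 with 31 of 32 members positive.

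**Figure D2:**
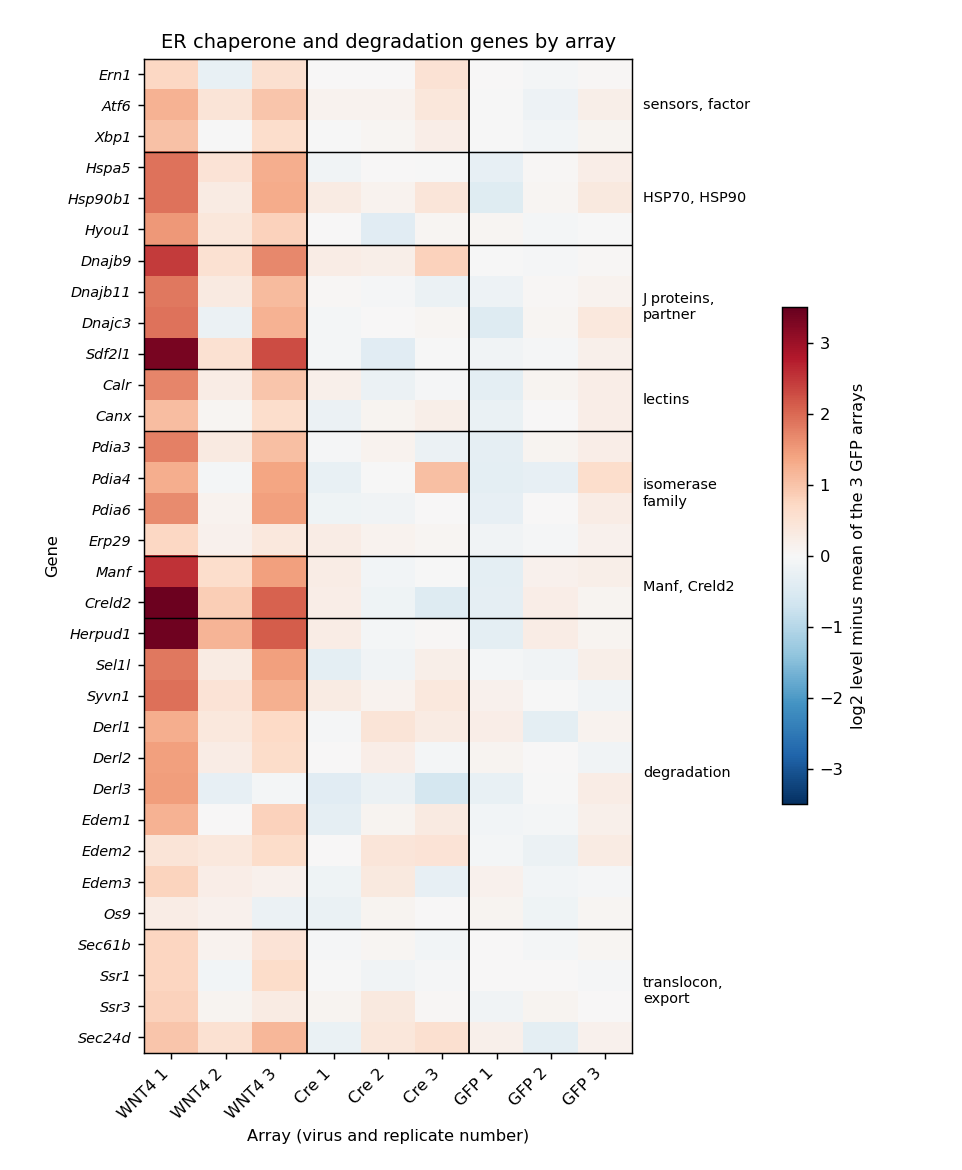
Log2 level of each member on each array minus the mean of the 3 GFP arrays, by role from top to bottom. WNT4 1 and WNT4 3 are red in nearly every row, WNT4 2 is faint, and the Cre and GFP columns are close to white.

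The sensors and the transcription factor Xbp1 differed from GFP by 0.34 to 0.88. Atf6, the membrane-bound factor released by cleavage in the Golgi, read 9.79, 9.02 and 9.56 on WNT4 1, 2 and 3, 8.69, 8.71 and 8.97 with Cre, and 8.56, 8.39 and 8.77 with GFP. All WNT4 arrays lay above all others, and the difference from GFP was 0.88 ± 0.19 (SE, 1.84-fold, adjusted p = 0.178). Its other probe set with a mean of at least 6 gave 0.84. Xbp1, the factor made active when IRE1 splices its mRNA, read 12.80, 11.76 and 12.41 with WNT4, 11.77, 11.86 and 12.02 with Cre, and 11.77, 11.69 and 11.89 with GFP. WNT4 2 fell among the control values, and the difference was 0.54 ± 0.22 (adjusted p = 0.359). The probe sets of Xbp1 spread from -0.06 to 0.73, and splicing was not measured apart from total mRNA. Ern1, the gene of IRE1, read 11.21, 10.22 and 11.04 with WNT4, 10.49, 10.49 and 11.00 with Cre, and 10.49, 10.43 and 10.54 with GFP. WNT4 2 was the lowest array of the 9 and Cre 3 was close to WNT4 3, so its difference from GFP, 0.34 ± 0.25, was near its own error.

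The central chaperones were higher on WNT4 1 and WNT4 3 by more than 1 log2 unit, apart from Hyou1 on WNT4 3. Hspa5, the HSP70 chaperone BiP that also holds the sensors inactive, read 15.17, 13.75 and 14.56 with WNT4, 13.16, 13.30 and 13.27 with Cre, and 13.00, 13.32 and 13.52 with GFP. Each WNT4 array exceeded each of the other 6, with a difference from GFP of 1.21 ± 0.31 (2.32-fold, adjusted p = 0.202). The dimmer probe sets of Hspa5 gave 1.48 with no overlap between WNT4 and GFP, and 0.26 with overlap. Hsp90b1, the HSP90 of the ER known as GRP94, read 13.43, 11.82 and 12.84 with WNT4, 11.82, 11.66 and 11.96 with Cre, and 11.10, 11.61 and 11.88 with GFP. WNT4 2 lay within the GFP range here, and the difference was 1.17 ± 0.36 (2.25-fold, adjusted p = 0.256), although its dimmer probe set gave 2.28 with no overlap. Hyou1, the exchange factor and chaperone GRP170 that works on BiP, differed by 0.91 ± 0.25, and its 3 WNT4 arrays lay above all others.

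The J proteins, which deliver clients to BiP and drive its ATP cycle, and their partner Sdf2l1 differed from GFP by 0.97 to 2.05. Sdf2l1, which forms a complex with the J protein Dnajb11, read 11.23, 8.45 and 10.18 with WNT4, 7.85, 7.52 and 7.90 with Cre, and 7.79, 7.86 and 8.07 with GFP. The WNT4 arrays stood clear of the others, with a difference from GFP of 2.05 ± 0.56 (4.13-fold, adjusted p = 0.227). Dnajb9, or ERdj4, read 12.18, 10.26 and 11.41 with WNT4, 9.98, 9.94 and 10.54 with Cre, and 9.73, 9.70 and 9.77 with GFP. Its GFP arrays were within 0.076 of each other, and both WNT4 and Cre lay wholly above them, with WNT4 differing by 1.55 ± 0.40 (2.93-fold, adjusted p = 0.215). Dnajb11 read 12.16, 10.61 and 11.43 with WNT4, 10.35, 10.28 and 10.10 with Cre, and 10.13, 10.36 and 10.43 with GFP, with a difference from GFP of 1.09 ± 0.32 and no overlap with either group. Dnajc3, the J protein p58IPK, was below both the GFP and the Cre mean on WNT4 2 and differed from GFP by 0.97 ± 0.45.

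**Figure D3:**
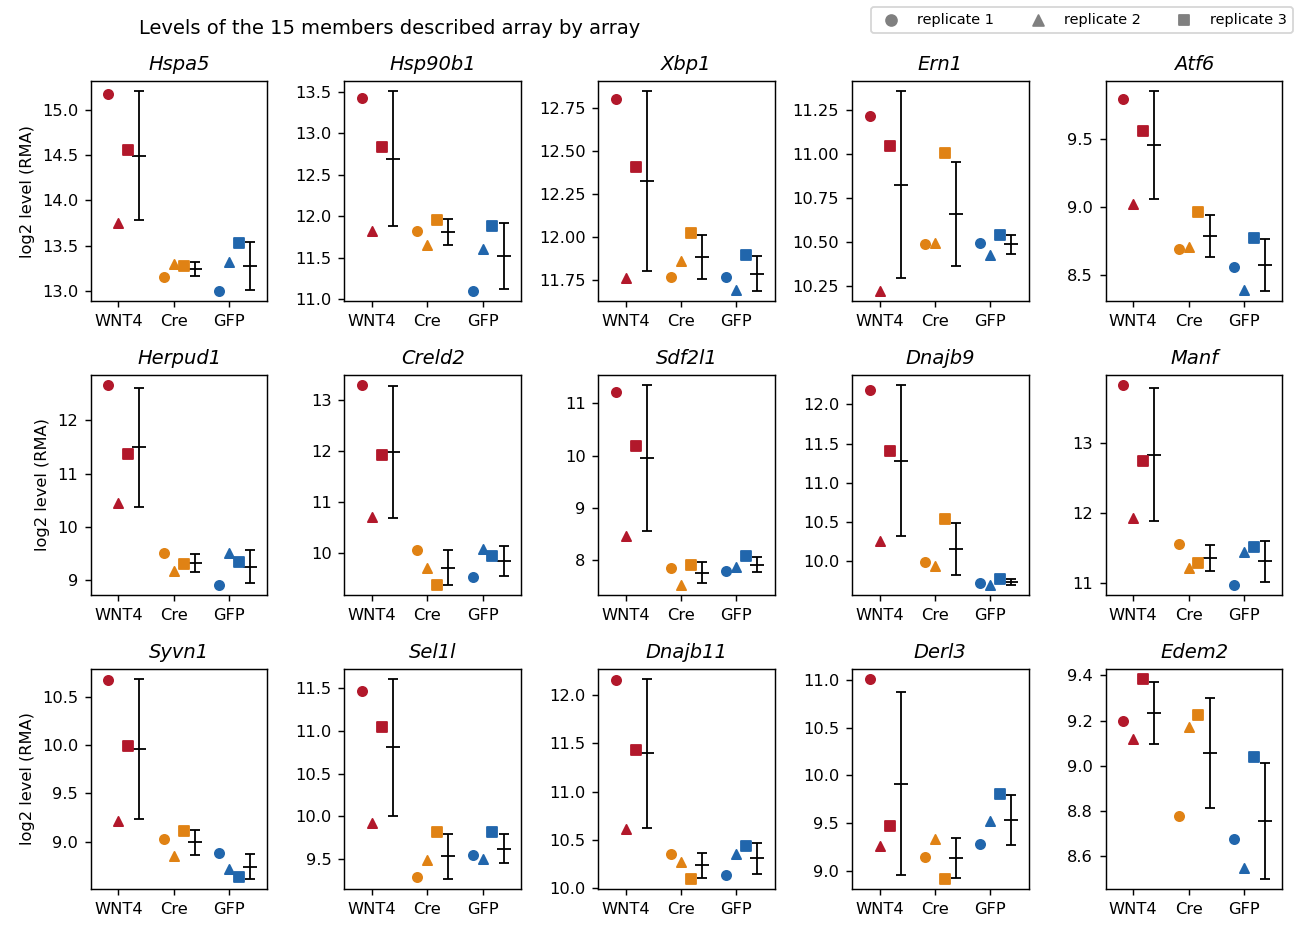
Log2 level of the 15 members given array by array, with the WNT4, Cre and GFP groups from left to right, a symbol for each replicate number, and the mean and SD of the 3 arrays in black beside each group. In most panels the WNT4 arrays are spread widely and lie above the tight Cre and GFP arrays. In Xbp1, Ern1, Hsp90b1, Dnajb9, Derl3 and Edem2 the lowest WNT4 array lies below the highest Cre or GFP array.

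Lectin chaperones and members of the disulphide isomerase family differed from GFP by 0.42 to 1.08. Calr and Canx, calreticulin and calnexin, which hold glycoproteins through their sugar, differed by 0.97 ± 0.32 and 0.59 ± 0.24. Pdia3, the isomerase that works with them, differed by 1.05 ± 0.32 with no overlap, and Pdia6 by 1.08 ± 0.35. Pdia4, another isomerase, differed by 0.87 ± 0.47 and was the clearest case of another pattern: it read 11.71, 10.37 and 11.83 with WNT4, 10.18, 10.42 and 11.48 with Cre, and 10.10, 10.14 and 11.06 with GFP. The array numbered 3 was thus the highest of each group. A list of 15 hypoxia genes had medians of 3.28 on WNT4 3 and 2.92 on Cre 3 relative to the GFP mean, and 0.15 on GFP 3. A list of 8 leukocyte markers had medians of 0.84, 0.88 and 0.52 on those arrays. The part of either list in the Pdia4 values was not tested. Erp29, a relative of the isomerases that helps proteins leave the ER, differed by 0.42 ± 0.15.

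Manf and Creld2, ER luminal proteins that are secreted under stress, ranked with Sdf2l1, Dnajb9 and Herpud1 as the members with the largest differences. Creld2 read 13.29, 10.71 and 11.92 with WNT4, 10.07, 9.70 and 9.38 with Cre, and 9.52, 10.08 and 9.94 with GFP. No WNT4 array overlapped the others, and the difference from GFP was 2.13 ± 0.54 (4.37-fold, adjusted p = 0.204). Manf read 13.84, 11.94 and 12.74 with WNT4, 11.56, 11.21 and 11.28 with Cre, and 10.97, 11.45 and 11.51 with GFP. It separated the WNT4 arrays in the same way, with a difference of 1.53 ± 0.40 (2.88-fold).

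In the degradation pathway the differences reached from the largest of the set to the smallest. Herpud1, a membrane protein that gathers the degradation complex, read 12.67, 10.44 and 11.38 with WNT4, 9.51, 9.18 and 9.30 with Cre, and 8.91, 9.51 and 9.35 with GFP. Even WNT4 2 stood 0.93 above the highest other array, and the difference from GFP was 2.24 ± 0.46 (4.73-fold, adjusted p = 0.171), the largest among the 32 members. Its other probe set gave 2.14. Sel1l and Syvn1, the adaptor and the ubiquitin ligase HRD1 that form the core of the complex, followed. Syvn1 read 10.67, 9.22 and 9.99 with WNT4, 9.03, 8.86 and 9.11 with Cre, and 8.88, 8.72 and 8.63 with GFP, a difference from GFP of 1.22 ± 0.30 (adjusted p = 0.194). Sel1l read 11.47, 9.92 and 11.04 with WNT4, 9.29, 9.49 and 9.81 with Cre, and 9.55, 9.50 and 9.81 with GFP, a difference of 1.19 ± 0.34. The lowest WNT4 array lay 0.11 above the highest Cre or GFP array for Syvn1 and 0.10 above it for Sel1l.

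The remaining degradation genes were nearer to the control. Derl1 and Derl2, derlins of the channel that returns proteins to the cytosol, differed by 0.79 ± 0.25 and 0.78 ± 0.25 with no overlap. Derl3 differed from them: it read 11.01, 9.26 and 9.47 with WNT4, 9.14, 9.34 and 8.92 with Cre, and 9.28, 9.52 and 9.80 with GFP. WNT4 1 alone stood out, and without it the difference was -0.17, against 0.38 ± 0.40 with all arrays. Edem1, Edem2 and Edem3, which trim or recognise the mannose of misfolded glycoproteins, differed by 0.67 ± 0.28, 0.48 ± 0.16 and 0.38 ± 0.20. Edem2 read 9.20, 9.12 and 9.39 with WNT4, 8.78, 9.17 and 9.22 with Cre, and 8.68, 8.55 and 9.04 with GFP, so its WNT4 arrays were close together but overlapped with Cre. Os9, a lectin that hands glycoproteins to Sel1l, had the smallest difference of the set, 0.07 ± 0.14.

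Genes of the entry channel and of export differed from GFP by 0.40 to 0.89, with a role median of 0.45. Sec61b, a subunit of the channel, differed by 0.45 ± 0.15, and Ssr1 and Ssr3, subunits of the translocon-associated complex, by 0.44 ± 0.20 and 0.40 ± 0.18. Sec24d, a cargo adaptor of the COPII coat, differed by 0.89 ± 0.25. For Sec61b and Sec24d the WNT4 and GFP arrays did not overlap. By role, the medians were 1.83 for Manf and Creld2, 1.32 for J proteins and Sdf2l1, 1.17 for the HSP70 and HSP90 chaperones, 0.96 for the isomerase family, 0.78 for the lectins, 0.73 for degradation and 0.54 for the sensors with Xbp1. Differences between roles were not tested.

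**Figure D4:**
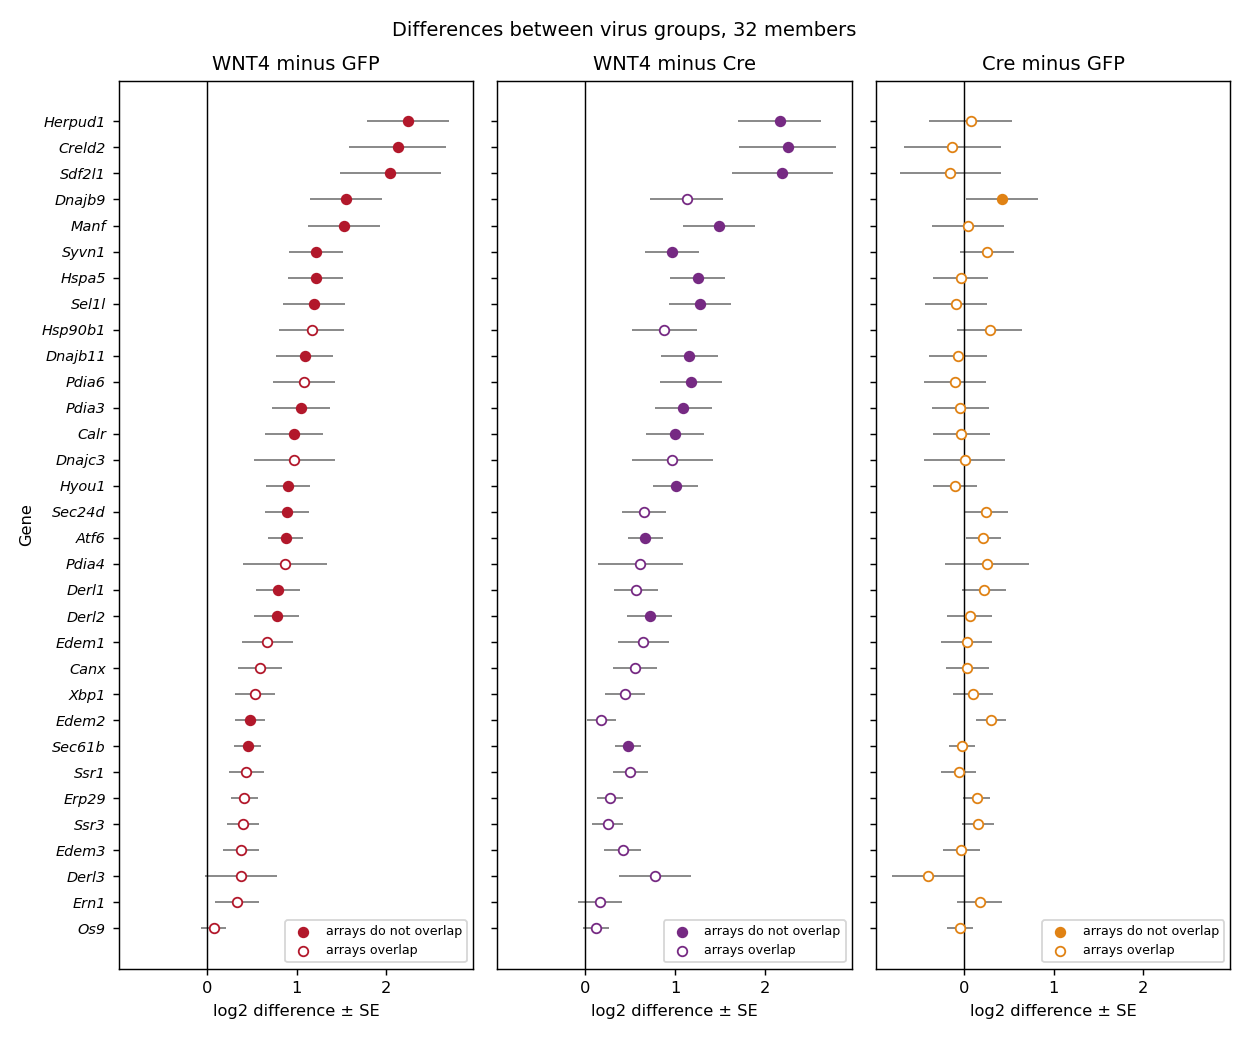
Log2 difference ± SE (n = 3 arrays per group) of each member for WNT4 minus GFP, WNT4 minus Cre and Cre minus GFP, with filled points where the arrays of the groups do not overlap. The points of the first and second panels lie right of 0 for all 32 members, and those of the third scatter around 0.

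Members that hold an ER stress response element or ERSE-II had a median difference from GFP of 1.09 over 11 genes, and those with a promoter window and neither element one of 0.61 over 16 genes. The ranges overlapped: Derl3 holds the element and differed by 0.38, while Sdf2l1 and Dnajb9 have neither in their windows and differed by 2.05 and 1.55. No overlap between WNT4 and GFP arrays was found for 6 of the 11 and for 8 of the 16. The share was 12.5% of all genes and 26.7% of those with a mean of at least 8. The 5 members without a promoter window had a median of 0.88, and 4 of these 5 had no overlap. This split is a description and was not tested.

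The contrast of Cre with GFP takes in Cre expression and any loss of Ctnnb1 it brings about. The members stayed near the control: 18 had a higher mean and 14 a lower one, with a median of 0.03 and a range from -0.40 for Derl3 to 0.42 for Dnajb9. None was called by limma, which called 0 of 45037 probe sets (0%) in this comparison. At an unadjusted p under 0.05, 0 of 32 members were higher, against 1.24% of all genes, and 0 lower, against 1.29%. Dnajb9 (0.42 ± 0.40) was the only member of the 32 whose Cre arrays all lay above the GFP arrays, a pattern found for 3.56% of all genes. Edem2 came next, at 0.30 ± 0.16. Both WNT4 and Cre were set against the same GFP arrays.

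WNT4 was therefore also set against Cre, a contrast that uses no GFP array in the difference and compares cells given viruses with different inserts. All 32 members had a higher mean with WNT4, by 0.12 to 2.26 with a median of 0.75, against a median of 0.04 over all genes and 0.18 over genes with a mean of at least 8. Limma called none of them (adjusted p of 0.773 at the lowest) and 0 of 45037 probe sets (0%). At an unadjusted p under 0.05, 21 of 32 members were higher and 0 lower, against 6.96% and 1.19% of all genes. The WNT4 arrays lay wholly above the Cre arrays for 15 of 32 members, against 6.55% of all genes and 12.7% of genes with a mean of at least 8, of which 15.9% were higher at an unadjusted p under 0.05. Creld2 (2.26 ± 0.54), Sdf2l1 (2.20 ± 0.56) and Herpud1 (2.17 ± 0.46) again had the largest differences, all with no overlap. Without WNT4 1 the median was 0.50, and without WNT4 2 it was 1.09, with no overlap for 28 members and for 17.7% of all genes.

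Other genes of the same pathway, taken from lists of folding, degradation, and translocon and export genes, had a lower median difference than the members. Of 75 measured, 70 had a higher mean with WNT4 than with GFP, with a median of 0.46. Of the 75, 28 (37.3%) were higher with no overlap, against 12.5% of all genes and 26.7% of genes with a mean of at least 8. By list the share was 27.3% for folding, 31.6% for degradation and 47.1% for translocon and export. At an unadjusted p under 0.05, 42 (56%) were higher and 1 lower, and 0 passed limma's adjusted test. The share higher at that p was 12.6% of all genes and 27% of those with a mean of at least 8. By array, the median of the 75 stood at 0.72, 0.17 and 0.48 on WNT4 1, 2 and 3 relative to the GFP mean. In the folding list, Ero1b, an oxidase that recharges the isomerases, differed by 1.03 ± 0.33, Uggt1, which marks unfinished glycoproteins for another round with calnexin, by 0.61 ± 0.17, and Ppib, the prolyl isomerase cyclophilin B, by 0.59 ± 0.18. Fkbp7, another prolyl isomerase of the ER, went the other way: it read 8.42, 8.74 and 8.65 with WNT4, against 8.97, 9.16 and 9.11 with GFP, a difference of -0.48 ± 0.12.

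In the degradation list, Selenos, which ties the ATPase p97 to the derlins, differed by 0.79 ± 0.22, Vcp, p97 itself, by 0.56 ± 0.17, Ufd1, a cofactor of p97, by 0.52 ± 0.16, and Man1b1, an ER mannosidase, by 0.36 ± 0.12. All 34 genes of translocation, glycosylation and export had a higher mean with WNT4. Kdelr3, a receptor that returns escaped chaperones to the ER, differed by 0.90 ± 0.26, Srpr, the receptor of the signal recognition particle, by 0.70 ± 0.18, Sec63, the J protein of the channel, by 0.63 ± 0.18, and Dad1, a subunit of the oligosaccharyl transferase, by 0.50 ± 0.11. None of these was called by limma (adjusted p of 0.174 for Dad1, the lowest).

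**Figure D5:**
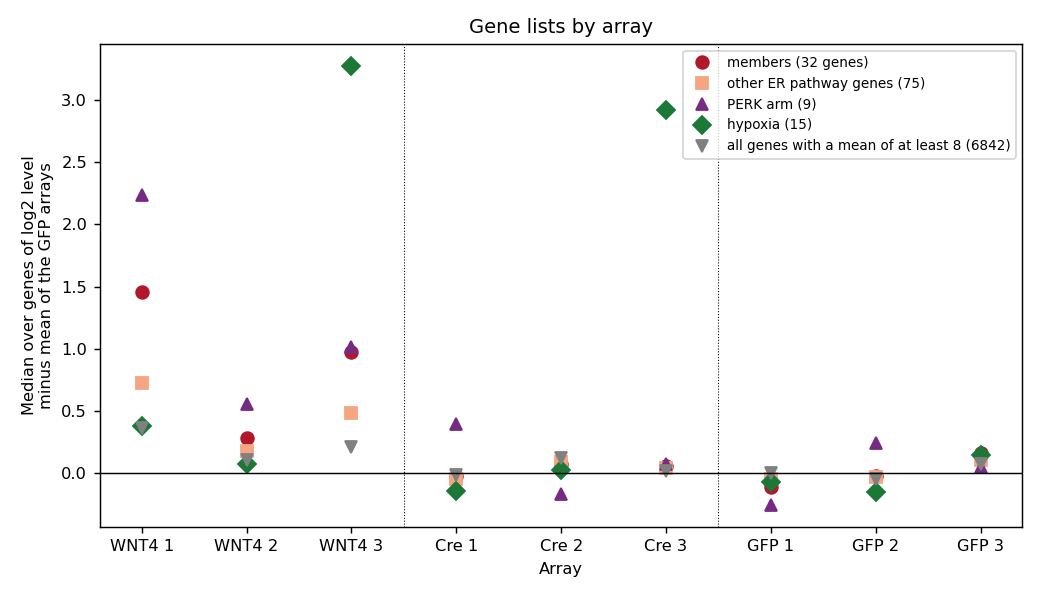
Median log2 level of each gene list on each array, relative to the mean of the GFP arrays. The ER members, the other ER pathway genes and the PERK arm share the order WNT4 1, WNT4 3, WNT4 2. All genes with a mean of at least 8 have this order too. The hypoxia list stands high on WNT4 3 and Cre 3.

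Other lists moved beside the ER genes from array to array. The PERK arm, 9 genes that include Ddit3 (CHOP, 2.69 ± 0.55 against GFP) and Atf4 (1.06 ± 0.37), had medians of 2.23, 0.55 and 1.02 on WNT4 1, 2 and 3. Cytosolic heat shock genes, 10 in number, had medians of 0.77, 0.11 and 0.68 there. All genes with a mean of at least 8 had smaller medians in the same order, 0.36, 0.10 and 0.21. The hypoxia list stood at 0.38, 0.07 and 3.28 on WNT4 1, 2 and 3. Its medians were -0.15, 0.02 and 2.92 on Cre 1, 2 and 3, and -0.07, -0.15 and 0.15 on GFP 1, 2 and 3. On WNT4 1, 8 of its 15 genes lay above every GFP array, and 13 did on WNT4 3. The part of hypoxia in the ER values was not tested. Of 9 oocyte markers the median stood at 1.77, 0.09 and -0.04 on WNT4 1, 2 and 3, and the summed linear level ran from 1262 to 4468 over the WNT4 arrays, 1109 to 2812 over Cre and 915 to 2147 over GFP, with Bmp15, Dazl and Ddx4 below a mean of 6. Of 10 theca and stroma markers the median stood at 0.64, -0.30 and 0.22, with summed levels of 3545 to 11795, 4138 to 9324 and 4057 to 9672 over the WNT4, Cre and GFP arrays, and with Lum and Cyp17a1 below a mean of 6. The part of these cells, and of the RNA quality of WNT4 1, in the ER values was not tested.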

How the data were processed

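RNA from 9 samples (3 per virus) was hybridised to Affymetrix mouse arrays. The authors deposited log2 values; the submitters' processing notes name RMA, a method that removes background, makes the arrays' distributions alike and merges the probes of a set. Its version is not stated there. The columns still differ in their upper quartile, so bright genes can shift together. The number of arrays limits the precision, and no pair shared over 4.53% equal values.

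Of 45101 probe sets, 64 controls were left out. Gene symbols came from the platform annotation (34945 probe sets with 1 symbol, 932 with several, 9160 unnamed here), updated by Entrez ID through RefSeq (34741 matched). Limma 3.58.1 in R 4.3.3 was fitted to all 9 arrays with no covariate, two-sided, with Benjamini-Hochberg adjustment over 45037 probe sets and a threshold of 0.05, and was tested on simulated data. An exact permutation test of 3 against 3 cannot go below p = 0.1. Members, gene lists and motifs were chosen with earlier results of these data known.

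Named array by array were Hspa5, Hsp90b1, Xbp1, Ern1, Atf6, the 10 members with the largest WNT4 minus GFP difference and the 3 with the largest Cre minus GFP difference; of each pathway list, the 4 genes with the lowest p. Pdia4 and Fkbp7's array values were chosen after they were seen. Of 78 listed pathway genes, 75 had a probe set used here.

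To see whether replicate numbers pair the arrays, each array's deviation from its group mean was correlated with that of the array of the same number, giving 0.21, 0.24 and 0.77 between WNT4 and Cre, -0.08, 0.01 and 0.35 between WNT4 and GFP, and -0.04, -0.31 and 0.31 between Cre and GFP. All 3 values exceed 0.1 for WNT4 and Cre alone. Unlike numbers correlated more in places, at 0.32 for WNT4 1 with Cre 2 and 0.28 for WNT4 2 with Cre 1. Only WNT4 3 and Cre 3 stood out as a pair, so pairing by number was not established. The main fit held no pairing term, and a replicate block was kept as an alternative.

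The alternatives were a replicate block, fits to the 6 arrays of a pair, a further quantile normalization, median or 75th percentile centring, a minimum mean of 6 or 8, an intensity trend, array weights, the average or the dimmest probe set of a gene, 1 probe set per gene, and each array left out.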

Additional observations from a re-analysis of the deposited data

How the results depend on the processing

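For WNT4 against GFP and WNT4 against Cre, the median difference stayed positive and moved by less than the spread between WNT4 arrays under all 12 alternatives other than left-out arrays, and 0 members were called under any of them. The lowest medians came from each gene's dimmest probe set (0.46 and 0.46), which also left 15 members higher at an unadjusted p under 0.05 against GFP, where 25 were with the brightest. Centring on the 75th percentile put the median over the whole array at -0.15 in WNT4 against GFP and left the members at 0.73. For Cre against GFP the median lay near 0 on either side, at -0.036 after quantile normalization and -0.016 after 75th percentile centring. There, 1 member was higher at an unadjusted p under 0.05 with the replicate number as a block and with the arrays of the pair alone, and 2 members were higher without overlap after median centring, 4 with probe sets of a gene averaged and 3 with the dimmest. The replicate block changed no other call or count by over 1.5 times.

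Leaving out each array in turn gave, for WNT4 against GFP, medians of 0.61 to 1.12, 0 to 18 members called, 18 to 29 higher without overlap and 18 to 29 at an unadjusted p under 0.05. For WNT4 against Cre the ranges were 0.50 to 1.09, 0 called, 15 to 28 and 15 to 29. For Cre against GFP they were -0.022 to 0.12, 0 called, 1 to 6 and 0 to 1. The highest values for WNT4 came without WNT4 2, where Hspa5 (1.58), Herpud1 (2.77) and Sdf2l1 (2.80) were among those called.

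Single genes changed sign where their difference was small or a dim probe set was read, and none of these was called. With the dimmest probe set, Xbp1 read -0.055 in WNT4 against GFP and -0.065 in WNT4 against Cre, Sel1l -0.098 and -0.0998, and Edem2 -0.13 in WNT4 against Cre. In Cre against GFP that choice gave 0.0052 for Hspa5 and 0.0018 for Sel1l, and averaged probe sets gave 0.034 for Hspa5 and -0.0058 for Ern1. Quantile normalization gave -0.057 for Ern1 in WNT4 against Cre and -0.032 for Manf in Cre against GFP. Manf was also -0.0062 there after 75th percentile centring and -0.014 with array weights, which gave -0.0015 for Herpud1. Over the left-out arrays, Derl3 in WNT4 against GFP ran between -0.17, without WNT4 1, and 0.70, and Ern1 in WNT4 against Cre between -0.030, also without WNT4 1, and 0.47. In Cre against GFP the ranges were -0.18 to 0.086 for Hspa5, -0.098 to 0.20 for Herpud1, -0.13 to 0.14 for Manf, -0.23 to 0.033 for Sel1l, -0.30 to 0.039 for Creld2 and -0.16 to 0.0039 for Dnajb11. The cause of these changes was not tested.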

Other observations

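The ER stress response element was also present in the promoter windows of genes outside the set, 11 of which had a probe set. Their median difference between WNT4 and GFP was 0.03, and 9 of the 11 had a mean under 8. The 2 brighter ones, Ero1b and Adcy3, an adenylyl cyclase, had no overlap between WNT4 and GFP arrays, at 1.03 ± 0.33 and 0.41 ± 0.14 (SE, n = 3 arrays per group). Among the other 9, Pan2, a deadenylase of mRNA tails, differed by 0.59. None of these passed limma's adjusted test.

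The probe sets of the members gave a wider look at the same genes. The 32 genes had 75 probe sets, 61 of them with a mean of at least 6, and 60 of these 61 were higher with WNT4 than with GFP, 34 with no overlap. The exception among the 61 was a probe set of Xbp1 with a mean of 6.53, at -0.06. Across the whole array, 18658 probe sets reached a mean of 6, and their median difference between WNT4 and GFP was 0.16. How many of those were higher, or had no overlap, was not counted. Probe sets of the same gene were also read from the same arrays, so the counts for the members are a description and not independent evidence.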
